A study of Homo sapiens with 4 samples.

Results

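Integrins are cell-surface receptors made of 1 alpha and 1 beta chain, and 9 genes for chains of leukocyte integrins were followed here in 4 Jurkat libraries. Jurkat is an established leukaemic T cell line of human origin. The members are 6 alpha chains (ITGA4, ITGA5, ITGA6, ITGAV, ITGAL and ITGAE) and 3 beta chains (ITGB1, ITGB2 and ITGB7), chosen by gene name from a table of 25122 genes. The members' normalized counts served the choice only in that the table holds a row for each gene, but the list was drawn up with earlier results of the same comparison known. Of the 26 integrin chains looked for, 24 were analysed, and the 15 outside the members are described further below.

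Both groups are Jurkat cells of wild-type genotype: 2 libraries carry a short hairpin RNA against BDH1 (shBDH1), and 2 carry a control hairpin (shcontrol). BDH1 encodes the mitochondrial enzyme that interconverts acetoacetate and 3-hydroxybutyrate. The series' description also speaks of cells with MYC restored, which are not analysed here, and the labels give neither the hairpins' sequences nor the time after transduction. Whether the paired libraries of each hairpin stem from independent cultures is not stated, and the p-values therefore reflect variation among these 4 libraries that may be technical. BDH1 mRNA stood at 1221 and 1412 normalized counts in shBDH1, against 1725 and 1911 in shcontrol, which is 27.6% less on average (log2 fold change -0.47, SE 0.0779, limma adjusted p = 1.5e-05), a call lost with a constant in place of a trended prior in limma (adjusted p = 0.083). Library depth was 28777374 and 29453383 reads in genes in shBDH1, against 28681511 and 28797402 in shcontrol, and 970 to 1067 genes stood at 0 in shBDH1, against 1601 to 1644 in shcontrol. Each library holds the mRNA of many cells, so a changed number of cells of a kind cannot be separated from a changed amount of RNA per cell.

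T cell markers were abundant. All 13 T cell markers looked for were found, with a summed level of 70676 to 72249 normalized counts in shBDH1, against 60861 to 61280 in shcontrol; 7 of them rose and 1 fell. Markers of other cell types had far lower sums, over lists with fewer genes found. The 3 B cell markers analysed summed to 665.7 to 686.0 in shBDH1, against 219.7 in both shcontrol libraries, and 1 of the 2 tested, CD79A, rose. The 7 cytotoxic and NK markers summed to 781.4 to 806.9 in shBDH1, against 194.2 to 219.7 in shcontrol, and 4 of the 6 tested rose. The 5 myeloid markers summed to 84.5 to 85.5 in shBDH1, against 61.6 to 67.5 in shcontrol, and both genes tested, CSF1R and CD68, missed the threshold (limma adjusted p = 0.81 and 0.38); the defining marker LYZ stood at 0 in 3 of the 4 libraries. The erythroid and megakaryocyte list rested on 1 gene, and in the fibroblast, endothelial and epithelial list, at 2013 to 2266 in shBDH1 and 2292 to 2555 in shcontrol, 2 of 4 rose and 1 fell. The gene that fell, PECAM1, named after its values were seen, had 1234 and 1091 in shBDH1, against 1574 and 1823 in shcontrol. In shcontrol it stood above the T cell markers CD2, CD5 and CD28. Its call was lost with the constant prior (limma adjusted p = 0.072). These marker counts can be read against the 20.3% of all genes tested that limma called higher and the 20.8% called lower. The part of the marker genes in the integrin values was not tested.

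An integrin alpha chain is held inside the cell until it pairs with a beta chain, so each receptor at the surface is set by both. ITGB1 pairs with the alpha chains of ITGA4, ITGA5, ITGA6 and ITGAV, which gives receptors for VCAM1 and fibronectin, for fibronectin alone, for laminins, and for other matrix proteins that carry the RGD motif. ITGB2 pairs with ITGAL to form LFA-1, the receptor for ICAMs that holds T cells to other cells, and ITGB7 pairs with ITGA4, in the receptor for gut homing, and with ITGAE, in the receptor for E-cadherin. Most integrins on a resting lymphocyte are bent and bind weakly until talin and kindlin bind the beta chain's tail.

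Because 8 of the 9 members were higher in shBDH1, the promoters were read for shared motifs. Promoter windows from RefSeq (GRCh38.p14) were found for 7 of the 9 members, 10 windows in all, each covering 250 bases before and 30 after a RefSeq transcription start. The 4 shown belong to the member with the most RNA (ITGA4), to ITGA5 and ITGB7, which had the largest changes, and to ITGAE, which did not pass the test; capitals mark motif matches. They lie at chr2:181457136-181457415 on the plus strand (ITGA4), and on the minus strand at chr12:54419237-54419516 (ITGA5), chr12:53207222-53207501 (ITGB7) and chr17:3801159-3801438 (ITGAE). In GENCODE 29 the gene's own start lies 184 bases upstream of the RefSeq start for ITGA4 and 194, 56 and 55 bases upstream for ITGA5, ITGB7 and ITGAE.

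ITGA4: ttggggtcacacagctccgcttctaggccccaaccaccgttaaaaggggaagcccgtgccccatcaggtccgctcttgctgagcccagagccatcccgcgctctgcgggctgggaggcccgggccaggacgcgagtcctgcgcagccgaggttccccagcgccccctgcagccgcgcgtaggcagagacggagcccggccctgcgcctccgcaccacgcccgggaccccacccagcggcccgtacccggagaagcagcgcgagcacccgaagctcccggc
ITGA5: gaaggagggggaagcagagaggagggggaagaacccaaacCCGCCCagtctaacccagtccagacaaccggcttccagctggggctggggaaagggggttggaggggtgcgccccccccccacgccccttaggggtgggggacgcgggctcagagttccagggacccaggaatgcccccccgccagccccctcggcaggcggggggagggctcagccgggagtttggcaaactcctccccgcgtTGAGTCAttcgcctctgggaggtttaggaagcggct
ITGB7: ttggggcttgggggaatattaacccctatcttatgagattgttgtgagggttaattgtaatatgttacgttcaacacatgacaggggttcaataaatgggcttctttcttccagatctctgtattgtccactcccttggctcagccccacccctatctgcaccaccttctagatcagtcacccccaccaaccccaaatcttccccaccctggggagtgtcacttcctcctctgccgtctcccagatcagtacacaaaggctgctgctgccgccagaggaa
ITGAE: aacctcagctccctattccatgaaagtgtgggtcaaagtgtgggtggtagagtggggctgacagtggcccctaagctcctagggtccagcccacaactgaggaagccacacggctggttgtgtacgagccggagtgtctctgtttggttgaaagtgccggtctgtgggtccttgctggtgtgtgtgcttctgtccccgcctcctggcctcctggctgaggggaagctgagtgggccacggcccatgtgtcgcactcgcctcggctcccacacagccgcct

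Motifs were chosen after the data were seen and searched on both strands. ITGA5 held the AP-1 motif TGANTCA from position -6, across the start, and the GC box GGGCGG on the minus strand from -210. AP-1 motifs were in 7.3% of all 35116 promoter windows in the table, and GC boxes in 44.1%. The windows of ITGA4, ITGB7 and ITGAE held neither of these, nor the RUNX core TGTGGT (in 12.3% of all windows), the ETS motif CCGGAAG (9.9%), the E-box CACGTG that MYC binds (6.9%) or the GATA motif AGATAA (9.9%). Among the windows not shown, ITGA6 held an E-box at -101 of one start, 1 ETS match, 3 GC boxes and a RUNX core within the overlap of its windows, ITGB1 held 3 GC boxes, and ITGAV 1 GATA match at a start 10140 bases inside the gene. No motif was found in the windows of all the matched members that rose. A match is a run of letters, not evidence of binding.

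Of the 9 members, 8 were higher in shBDH1 and 0 lower by limma (adjusted p under 0.05 over 19301 genes tested; at an unadjusted p under 0.05 the count lower was 0 as well, as it was by edgeR and DESeq2). Of all genes tested, 20.3% were called higher and 20.8% lower. Among genes averaging 1000 to 10000 normalized counts, where 7 of the members lie, 26.2% were called higher and 34.1% lower. The shBDH1 libraries lay above both shcontrol libraries for 8 members, as they did for 34.1% of all genes tested. The median log2 fold change of the members was 0.76, against -0.01 over all genes tested. All 9 members passed the filter on low values. With the constant prior, 4 members were called higher, and ITGAV, ITGB1, ITGB2 and ITGB7 missed the threshold (adjusted p = 0.057, 0.069, 0.054 and 0.057). The list was drawn up with results known, so these counts describe the members and carry no test of the list.

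**Figure D1:**
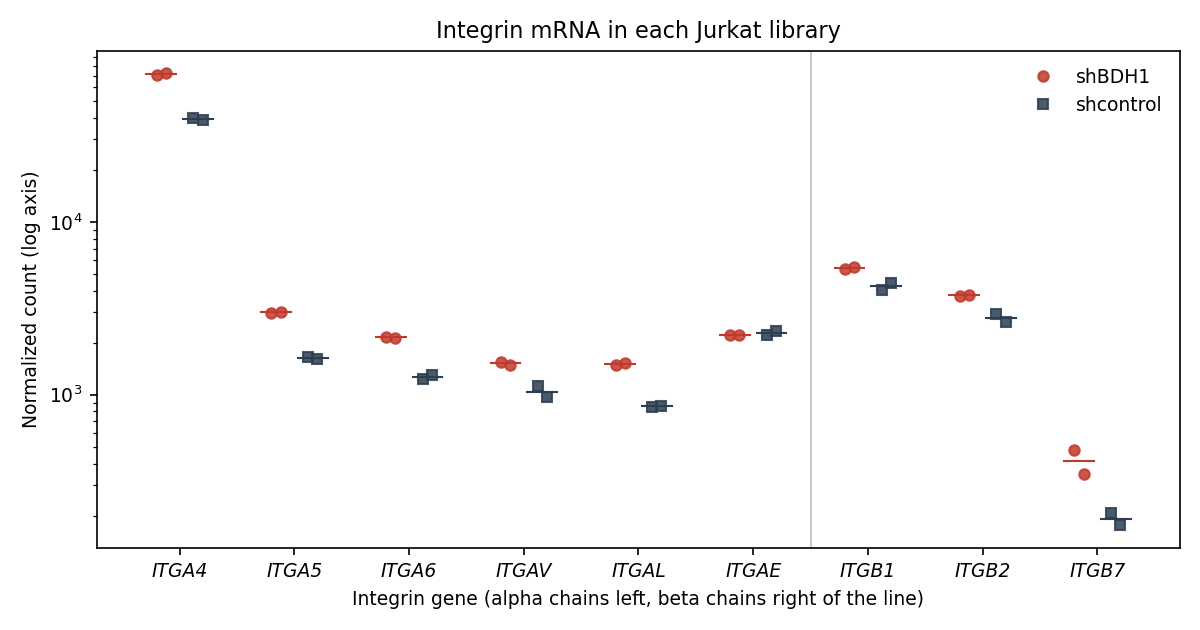
Normalized count on a log axis for the 9 integrin genes in each library, shBDH1 as circles left of shcontrol as squares, with a line at each group's mean (n = 2 each). ITGA4 stands above all others at 70369 and 72217 in shBDH1, and the symbols of the groups overlap in height for ITGAE only.

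ITGA4, the alpha chain that binds VCAM1 and fibronectin, was the most abundant member per kilobase and was higher in shBDH1. ITGA4 (ENSG00000115232) had 70369 and 72217 normalized counts in shBDH1, against 39775 and 38948 in shcontrol. Both shBDH1 libraries lay far above both shcontrol libraries, and libraries of a group lay close together. The means were 71293 ± 1307 in shBDH1 and 39361 ± 584 in shcontrol (SD, n = 2 each). By limma, the difference was 0.86 on the log2 scale (SE 0.0268, adjusted p = 2.8e-20). The gene covers bases 181457202 to 181536187 of chromosome 2 on the plus strand (GRCh38, GENCODE 29), and no other gene of the table overlaps it. By normalized counts per kilobase of merged exons, ITGA4 ranked 43rd and 44th of 15411 protein-coding genes in shBDH1, against 94th and 99th in shcontrol.

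Both fibronectin and laminin receptor chains were higher as well. ITGA5, the alpha chain of the classical fibronectin receptor, had 2971 and 3007 normalized counts in shBDH1, against 1663 and 1609 in shcontrol. The groups stood apart by many times the spread within either. On the log2 scale the difference was 0.87 (SE 0.0613, limma adjusted p = 2.2e-12). ITGA6, a laminin receptor chain, had 2163 and 2140 normalized counts in shBDH1, against 1237 and 1296 in shcontrol. Its groups did not overlap either, and its log2 fold change was 0.76 (SE 0.0687, limma adjusted p = 3.3e-10). An antisense gene on the strand opposite ITGA6, AC078883.1, shared 52 exon bases with it and rose too, to 1811 and 1654 normalized counts in shBDH1, against 1084 and 1149 in shcontrol (log2 fold change 0.63, limma adjusted p = 7.9e-08). No strand setting is known for the counting, so reads where these genes overlap cannot be assigned to either. ITGA5 lies on chromosome 12 (54395261 to 54419460, minus strand), and ITGA6 on chromosome 2 (172427354 to 172506282, plus strand).

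ITGAV, the alpha chain of RGD-binding receptors that also release TGF-beta from its latent form, was higher by less. It had 1549 and 1482 normalized counts in shBDH1, against 1116 and 967.9 in shcontrol. The shcontrol libraries differed from each other by more than the shBDH1 libraries did, and the groups did not overlap. The log2 fold change was 0.54 (SE 0.0813, limma adjusted p = 3.2e-06), and 0.44 without shcontrol replicate 2 (limma adjusted p = 6.5e-05). AC017101.1, an antisense gene that shares 203 exon bases with ITGAV, rose to 1199 and 1282 normalized counts in shBDH1, against 752.6 and 770.6 in shcontrol (log2 fold change 0.70, limma adjusted p = 1.1e-07). ITGAV lies on chromosome 2 (186590065 to 186680901, plus strand).

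Both chains of LFA-1 were higher, the alpha chain by more. ITGAL had 1479 and 1529 normalized counts in shBDH1, against 851.2 and 862.6 in shcontrol, and its partner ITGB2 had 3745 and 3777 in shBDH1, against 2910 and 2648 in shcontrol. For both genes the lower shBDH1 library lay above the higher shcontrol library. The log2 fold change was 0.81 for ITGAL (SE 0.0796, limma adjusted p = 1.9e-09) and 0.44 for ITGB2 (SE 0.0563, limma adjusted p = 2.7e-07). The 95% intervals, 0.65 to 0.97 for ITGAL and 0.32 to 0.55 for ITGB2, did not meet, though the difference between the chains was not itself tested. ITGAL lies on chromosome 16 (30472658 to 30523185, plus strand) and ITGB2 on chromosome 21 (44885953 to 44931989, minus strand).

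ITGB1, the beta chain shared by most of these alpha chains, had the smallest fitted change among the members that rose. It had 5368 and 5484 normalized counts in shBDH1, against 4050 and 4426 in shcontrol, without overlap between groups. The log2 fold change was 0.36 (SE 0.0501, limma adjusted p = 1.1e-06), with a 95% interval of 0.26 to 0.46, below the intervals of ITGA4 (0.80 to 0.91), ITGA5 (0.74 to 0.99) and ITGA6 (0.62 to 0.91) but overlapping those of ITGB2 (0.32 to 0.55) and ITGAV (0.38 to 0.71). Without shcontrol replicate 2 the order of ITGB1 and ITGB2 turned, at 0.42 and 0.37 on the log2 scale. ITGB1 lies on chromosome 10 (32900319 to 33005792, minus strand).

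The chains of the gut and epithelial receptors parted. ITGB7, the beta chain that ITGA4 and ITGAE share, had 475.7 and 347.9 normalized counts in shBDH1, against 206.4 and 175.8 in shcontrol. It was the least abundant member per kilobase and had the widest spread within shBDH1 relative to its mean, and its groups did not overlap. The log2 fold change was 1.09 (SE 0.168, limma adjusted p = 4.8e-06), the largest of the 9, with a 95% interval of 0.75 to 1.43 that takes in the values of ITGA4, ITGA5, ITGA6 and ITGAL. It ranged from 0.87 without shBDH1 replicate 1 to 1.32 without shBDH1 replicate 2. ZNF740, on the opposite strand, shares 1886 exon bases with ITGB7, 42.1% of that gene's merged exons, and had 1860 and 1958 normalized counts in shBDH1, against 2173 and 2045 in shcontrol (log2 fold change -0.14, limma adjusted p = 0.079). How many reads of this pair were given to either gene is not known, so the level of ITGB7 is uncertain.

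ITGAE, the alpha chain CD103 of the E-cadherin receptor, did not pass the test. It had 2205 and 2216 normalized counts in shBDH1, against 2200 and 2322 in shcontrol. The shBDH1 libraries fell between the shcontrol libraries, and by limma the difference was -0.03 on the log2 scale, with an SE of 0.0616 and a 95% interval of -0.16 to 0.09 (adjusted p = 0.71). That interval lies below those of the other 8 members. HASPIN, a kinase gene nested in ITGAE on the opposite strand with 427 shared exon bases, fell to 1055 and 1099 normalized counts in shBDH1, against 1250 and 1304 in shcontrol (log2 fold change -0.25, limma adjusted p = 0.013), a call lost without shBDH1 replicate 1 (adjusted p = 0.08), without shcontrol replicate 2 (0.11) and with the constant prior (0.098). ITGB7 lies on chromosome 12 (53191318 to 53207307, minus strand) and ITGAE on chromosome 17 (3714628 to 3801243, minus strand).

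Compared per kilobase of merged exons, the scale on which different genes can be ordered, the members ran in shBDH1 from ITGA4 through ITGB1, ITGB2, ITGA5, ITGAE, ITGA6, ITGAL and ITGAV down to ITGB7. The means in shBDH1 were 9023 ± 165 normalized counts per kilobase for ITGA4, 903 ± 13.6 for ITGB1 and 553 ± 3.37 for ITGB2 (SD, n = 2). They were 394 ± 3.32 for ITGA5, 332 ± 1.26 for ITGAE and 329 ± 2.53 for ITGA6, so that ITGAE and ITGA6 did not differ beyond their spread, and then 232 ± 5.39 for ITGAL, 185 ± 5.75 for ITGAV and 91.9 ± 20.2 for ITGB7. In shcontrol, ITGAE stood above ITGA5, at 340 ± 12.9 against 216 ± 5.11 per kilobase, while ITGA4 (4982 ± 73.9), ITGB1 (705 ± 44.3) and ITGB2 (409 ± 27.2) led there too. ITGA6 (194 ± 6.35), ITGAL (132 ± 1.24), ITGAV (127 ± 12.8) and ITGB7 (42.6 ± 4.83) followed in shcontrol, where ITGAL and ITGAV did not differ beyond their spread. With exon lengths from the basic transcript set each group kept its own order, but there ITGAE (573 ± 2.17) lay beyond its spread above ITGA6 (368 ± 2.82) in shBDH1. In shcontrol that set gave 164 ± 1.54 for ITGAL and 145 ± 14.5 for ITGAV.

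ITGA4 alone made up 83.1% and 83.3% of the per-kilobase total of the 17 alpha chains analysed in shBDH1, against 79.8% and 79.4% in shcontrol. ITGAE made up 3.09% and 3.04% of it in shBDH1, against 5.24% and 5.62% in shcontrol. Of the 7 beta chains analysed, ITGB1 held 56.6% and 57.6% of the total in shBDH1, against 57.4% and 62.2% in shcontrol, and ITGB2 held 34.9% and 35.1% in shBDH1, against 36.5% and 32.9% in shcontrol. ITGB7 held 6.73% and 4.90% in shBDH1, against 3.93% and 3.31% in shcontrol, shares as uncertain as its level beside ZNF740. Among the other alpha chains, ITGA5 held 3.66% and 3.62% in shBDH1, against 3.48% and 3.42% in shcontrol. ITGAV held 1.76% and 1.65% in shBDH1, against 2.15% and 1.9% in shcontrol. The shares of ITGA4, ITGA5, ITGAV, ITGAE and ITGB7 did not overlap between groups, while those of ITGA6, ITGAL, ITGB1 and ITGB2 did.

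**Figure D2:**
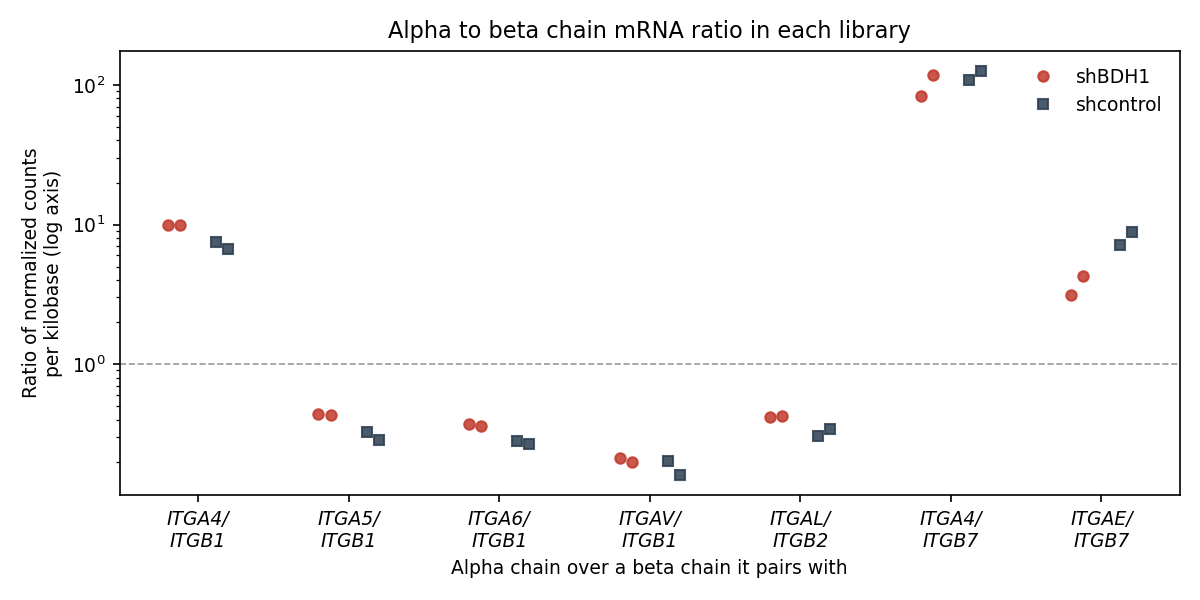
Ratio of alpha to beta chain mRNA, in normalized counts per kilobase on a log axis, for 7 pairs known to form receptors, with 1 symbol per library, shBDH1 left of shcontrol; the dashed line marks equal levels. ITGA4 exceeds ITGB1 in every library, the other alpha chains of ITGB1 stay below it, and the ITGAE to ITGB7 ratio lies lower in both shBDH1 libraries.

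The plot of chain ratios sets each alpha chain beside its partner. The ITGA4 to ITGB1 ratio per kilobase was 9.97 and 10 in shBDH1, against 7.47 and 6.69 in shcontrol. That ratio was higher in both shBDH1 libraries, as were those of ITGA5 to ITGB1 (0.439 and 0.435 in shBDH1, against 0.326 and 0.288 in shcontrol) and of ITGAL to ITGB2 (0.415 and 0.425 in shBDH1, against 0.307 and 0.342 in shcontrol). The ITGAE to ITGB7 ratio was 3.12 and 4.29 in shBDH1, against 7.18 and 8.89 in shcontrol, and so was lower in both shBDH1 libraries. The ITGA6 to ITGB1 ratio was higher in both shBDH1 libraries (0.371 and 0.359, against 0.281 and 0.269 in shcontrol), while those of ITGAV to ITGB1 and of ITGA4 to ITGB7 overlapped between groups. The size of these ratios depends on the exon lengths used. Ratios with ITGB7 also carry the uncertainty of its level, since ZNF740 shares 42.1% of its merged exons. With the basic transcript set, ITGAL to ITGB2 was 0.265 and 0.272 in shBDH1, against 0.196 and 0.219 in shcontrol. ITGA6 to ITGB1 was then 0.271 and 0.263 in shBDH1, against 0.206 and 0.197 in shcontrol. With 2 libraries against 2, an exact permutation test cannot go below p = 0.333, so the ratios are given without a test. They are ratios of mRNA and say nothing of the amount of receptor.

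By the distance between log2 values centred over the 4 libraries, the genes nearest to ITGB7 among 11106 protein-coding genes were KIF5C, CD48 and ISPD (distances 0.133, 0.150 and 0.164). They had log2 fold changes of 1.00, 1.07 and 1.25, and the call for ISPD was lost with the constant prior (limma adjusted p = 0.053). The genes nearest to ITGAE were OSER1, RNF212 and ELMOD3 (distances 0.011, 0.015 and 0.015), with log2 fold changes of -0.03, -0.03 and -0.04. CD48 is a surface protein that binds CD2 or CD244 on other leukocytes. With 4 libraries in 2 groups, this likeness mostly reflects the size of the change and the scatter within groups.

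Of the 17 other integrin chains listed, 15 were analysed and 10 averaged at least 10 normalized counts and were tested; 4 rose and 1 fell, with a median log2 fold change of 0.39. ITGA1, a collagen receptor chain, rose to 201.5 and 181.0 normalized counts in shBDH1, against 56.5 and 81.8 in shcontrol (log2 fold change 1.48, SE 0.252, limma adjusted p = 2.1e-05). The collagen receptor chain ITGA2 rose by 0.46 and the laminin receptor chain ITGA3 by 0.30 on the log2 scale; the call for ITGA3 was lost without shBDH1 replicate 1 (adjusted p = 0.052) and with the constant prior (0.08). ITGA9, which like ITGA4 binds VCAM1, fell to 56.0 and 61.3 normalized counts in shBDH1, against 103.7 and 109.4 in shcontrol (log2 fold change -0.85, limma adjusted p = 0.02), a call lost without shBDH1 replicate 1 (adjusted p = 0.085), shcontrol replicate 1 (0.061) or shcontrol replicate 2 (0.097), and by DESeq2 (0.053). The leukocyte chains ITGAM and ITGAD, named after their values were seen, were near the floor, at 5.9 to 21.1 and 8.0 to 9.8 in shBDH1, against 4.1 to 5.1 and 2.1 to 7.2 in shcontrol, and were not tested. The fourth that rose, ITGA7, also named after its values were seen (log2 fold change 0.50, adjusted p = 0.037), lost its call without shBDH1 replicate 2 (0.59) or shcontrol replicate 2 (0.35), with no filter (0.17), with the constant prior (0.33) and by DESeq2 (0.096). The 6 alpha chain members together held 96.8% of the per-kilobase alpha chain total in both shBDH1 libraries, against 95.7% and 95.6% in shcontrol. The 3 beta chain members held 98.3% and 97.6% of the beta chain total in shBDH1, against 97.9% and 98.4% in shcontrol.

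**Figure D3:**
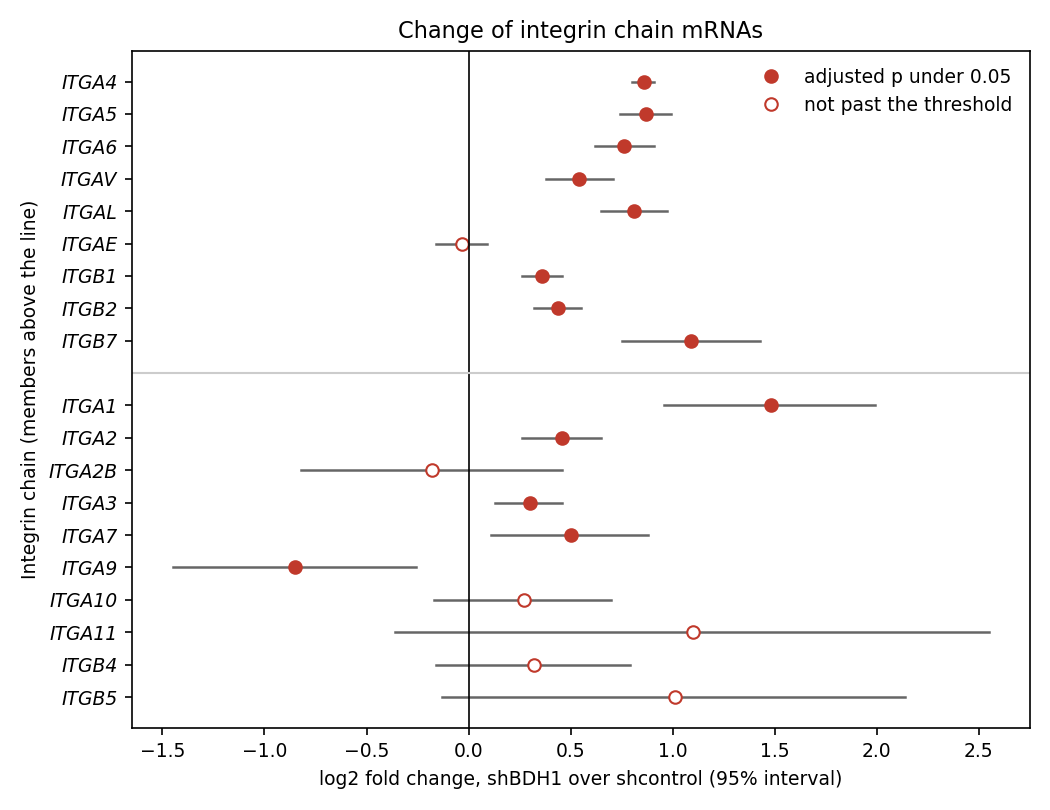
Log2 fold change, shBDH1 over shcontrol, with its 95% interval from limma, for the 9 members (above the line) and the 10 other integrin chains tested; filled symbols have an adjusted p under 0.05. All members but ITGAE lie right of 0, from 0.36 for ITGB1 to 1.09 for ITGB7, and ITGA9 is the one chain called lower.

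The ligands went both ways. Of 27 listed, 22 were analysed and 19 tested; 7 rose and 6 fell, with a median log2 fold change of 0.32. ICAM2, a ligand of LFA-1, fell to 755.8 and 754.2 normalized counts in shBDH1, against 1165 and 1234 in shcontrol (log2 fold change -0.67, limma adjusted p = 3e-07). SEMA7A, a membrane ligand of ITGB1 integrins, rose to 761.7 and 840.7 in shBDH1, against 403.5 and 339.3 in shcontrol (log2 fold change 1.11, limma adjusted p = 7.4e-09). LAMB1, a laminin chain, rose by 0.67, and MFGE8, an RGD protein bound by ITGAV receptors, fell by 0.40 on the log2 scale. Other laminin chains, named after their values were seen, went both ways. LAMA5 fell by 0.67, LAMC1 and LAMA3 rose by 1.56 and 0.55, and LAMA2 missed the threshold (limma adjusted p = 0.27). The calls for LAMC1 (adjusted p = 0.11) and LAMA3 (0.06) were lost with the constant prior. Named after their values were seen, the fibronectin gene FN1 rose to 340.1 and 329.8 normalized counts in shBDH1, against 232.1 and 159.4 in shcontrol, and ICAM3, another ligand of LFA-1, had 2456 and 2493 in shBDH1, against 2537 and 2471 in shcontrol, with limma adjusted p = 0.84. The other ICAMs, also named after their values were seen, went different ways. ICAM1 rose to 387.3 and 442.5 in shBDH1, against 299.8 and 303.5 in shcontrol (log2 fold change 0.46, limma adjusted p = 0.0092). That call rested on shBDH1 replicate 2, without which the log2 fold change of ICAM1 was 0.36. ICAM4 fell to 117.0 and 97.5 in shBDH1, against 229.0 and 246.3 in shcontrol (log2 fold change -1.15, limma adjusted p = 4.7e-05), and ICAM5 missed the threshold (0.96). Without shBDH1 replicate 2, 4 ligands were called higher. With the constant prior 3 were higher and 3 lower, and the calls for FN1 (adjusted p = 0.098), MFGE8 (0.06) and ICAM1 (0.066) were lost.

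Among genes that switch integrins on, all 18 listed were tested; 10 rose and 4 fell, with a median log2 fold change of 0.22. FERMT2, the kindlin of cells other than leukocytes, rose to 1952 and 2033 normalized counts in shBDH1, against 656.1 and 832.9 in shcontrol (log2 fold change 1.43, SE 0.0902, limma adjusted p = 2e-13). FERMT3, the leukocyte kindlin, named after its values were seen, had 2522 and 2631 in shBDH1, against 2503 and 2361 in shcontrol, and did not pass the test (limma adjusted p = 0.28). RASSF5, a RAP1 effector that binds ITGAL, rose by 0.61, and RAP1B, the main RAP1 GTPase of blood cells, rose by 0.55 on the log2 scale. FYB1, the adaptor ADAP that links the T cell receptor to integrin activation, fell to 6809 and 7099 normalized counts in shBDH1, against 13024 and 13240 in shcontrol (log2 fold change -0.92, SE 0.0394, limma adjusted p = 4.3e-17). The 2 talin genes, also named after their values were seen, went opposite ways. TLN1 rose by 0.27 on the log2 scale to 10203 and 10460 normalized counts in shBDH1, against 8692 and 8467 in shcontrol. TLN2 fell to 668.4 and 694.9 in shBDH1, against 823.5 and 1024 in shcontrol (log2 fold change -0.43, limma adjusted p = 0.0011). The calls for TLN1 (adjusted p = 0.075) and TLN2 (0.12) were lost with the constant prior, which left 6 activators higher and 1 lower. The TLN2 call also rested on shcontrol replicate 2, without which its log2 fold change was -0.27.

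Among genes that hold integrins back, 10 of 11 listed were tested; 6 rose and 0 fell, with a median log2 fold change of 0.39; 1 of the 4 others, SHARPIN, named after its values were seen, had an unadjusted limma p under 0.05 and a negative value (-0.11, adjusted p = 0.063), and edgeR and DESeq2 called 0 lower. FLNA, the actin crosslinker that competes with talin for beta chain tails, rose to 38506 and 37289 normalized counts in shBDH1, against 17854 and 17196 in shcontrol (log2 fold change 1.11, SE 0.0316, limma adjusted p = 3.7e-21). RAP1GAP2 and SIPA1L1, which switch RAP1 off, rose by 0.76 and 0.58, and the adaptor DOK2 rose by 0.67 on the log2 scale. RAP1GAP and SIPA1, named after their values were seen, missed the threshold (log2 fold change -0.08 and 0.11, limma adjusted p = 0.4 and 0.2). With the constant prior 4 inhibitors were higher and 0 lower, and DESeq2 called 5 higher.

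Of 31 genes of adhesion signalling and actin linkage, 27 were tested; 14 rose and 4 fell, with a median log2 fold change of 0.26. VASP, which extends actin filaments, rose to 2271 and 2238 normalized counts in shBDH1, against 1028 and 1096 in shcontrol (log2 fold change 1.09, SE 0.071, limma adjusted p = 4.2e-13). PARVG, the leukocyte parvin that joins the kinase-like ILK to actin, rose by 0.77, the paxillin relative LPXN by 0.64 and the actin crosslinker ACTN4 by 0.57 on the log2 scale. With the constant prior, 7 of this list were higher and 1 lower.

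Membrane partners of integrins included the largest changes of these groups. All 12 listed were tested; 7 rose and 3 fell, with a median log2 fold change of 0.24. The tetraspanin CD82 rose to 5566 and 5231 normalized counts in shBDH1, against 1286 and 1212 in shcontrol (log2 fold change 2.11, SE 0.0598, limma adjusted p = 3.7e-21). The tetraspanins CD151, a partner of laminin receptors, and CD53 rose by 0.90 and 0.53 on the log2 scale. The other tetraspanins listed, named after their values were seen, went both ways. CD63 and CD81 rose by 0.61 and 0.17 on the log2 scale. The CD81 call rested on shBDH1 replicate 2 and on shcontrol replicate 2, without which its log2 fold change was 0.13 and 0.14. CD37 fell to 861.0 and 963.4 normalized counts in shBDH1, against 1295 and 1430 in shcontrol (log2 fold change -0.58, limma adjusted p = 2.4e-06), and CD9 missed the threshold (0.1). SLC3A2, the CD98 heavy chain that binds beta chain tails and also carries an amino acid transporter, fell to 5355 and 5467 normalized counts in shBDH1, against 13521 and 13426 in shcontrol (log2 fold change -1.32, limma adjusted p = 1.5e-20). With the constant prior, 4 membrane partners were higher and 1 lower, and the calls for CD37 (adjusted p = 0.053) and CD81 (0.18) were lost.

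Among genes of integrin trafficking, 8 of 9 listed were tested; 2 rose and 3 fell, with a median log2 fold change of -0.13. The small GTPases RAB11A and RAB21, which return integrins to the surface or bring them in, fell by 0.44 and 0.40, and SNX17, which keeps ITGB1 from degradation, fell by 0.34 on the log2 scale. ACAP1, which sorts ITGB1 into recycling vesicles, rose by 0.39. With the constant prior 0 were higher and 1 lower, and the calls for RAB21 (adjusted p = 0.084), SNX17 (0.082) and ACAP1 (0.051) were lost.

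Of 14 other adhesion molecules of leukocytes, 12 were analysed and tested; 8 rose and 1 fell, with a median log2 fold change of 0.78. CD6, which binds ALCAM, rose to 2439 and 2568 normalized counts in shBDH1, against 1300 and 1385 in shcontrol (log2 fold change 0.90, SE 0.0673, limma adjusted p = 7.4e-12). CD58, the ligand of CD2, rose by 1.01 and CD2 itself by 0.66 on the log2 scale. With the constant prior, 6 of this list were higher and 0 lower. Each of these lists can be read against the 20.3% of all genes called higher and the 20.8% called lower; no list was tested as a set.

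**Figure D4:**
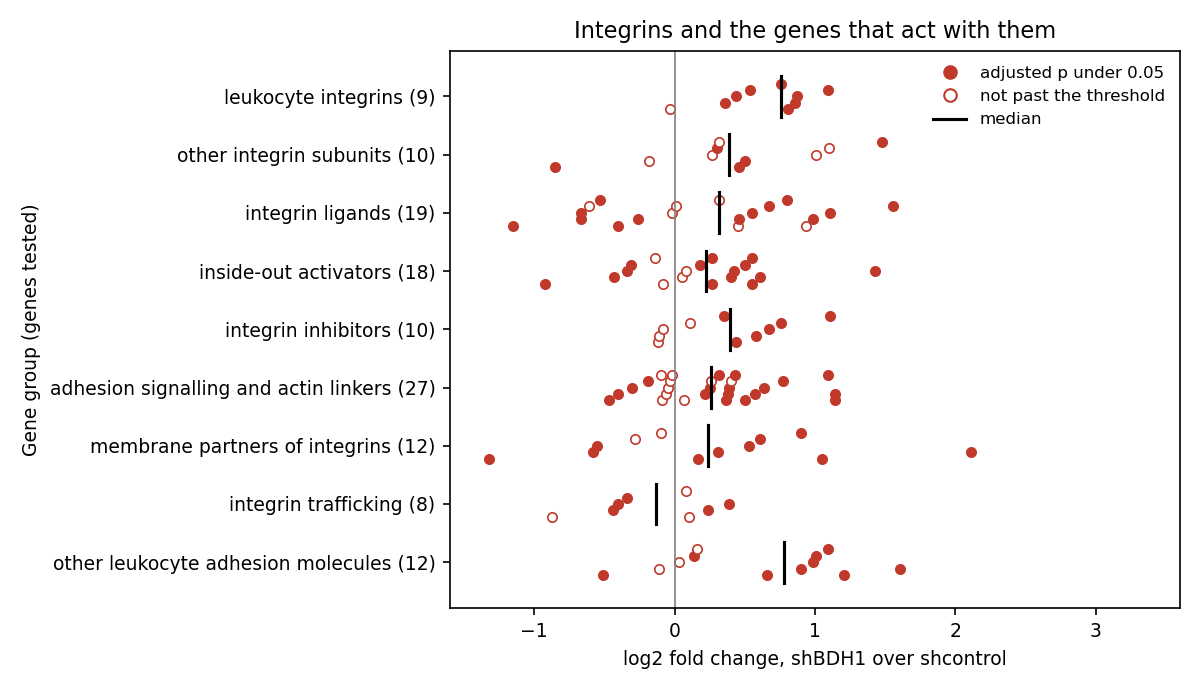
Log2 fold change, shBDH1 over shcontrol, of each tested gene in the 9 leukocyte integrins and in 8 lists of genes that act with them, with the number tested in brackets; filled symbols have an adjusted p under 0.05 and bars mark medians. The medians run from -0.13 for trafficking genes to 0.78 for other adhesion molecules, with CD82 farthest right at 2.11 and SLC3A2 farthest left at -1.32.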

How the data were processed

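Per the labels' protocols, mRNA libraries were sequenced as paired ends; hg38, FastQC 0.11.9 and HISAT2 2.2.1 stand in the submitters' processing notes, while for the counter, annotation and strand setting the sources used here give nothing. The deposited values are a normalized signal: every value of a library was a whole multiple of 1 step, so the authors had divided read counts by a size factor (0.9739 to 1.0174). Undoing that division returned whole reads at 100.0% of values (tolerance 0.01). In the table, 21 gene symbols that had become dates were restored from gene IDs.

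The main test was limma 3.58.1 (R 4.3.3) on log2(value + 1) with a trended prior, for genes averaging at least 10 (19301), adjusted by the Benjamini-Hochberg method, threshold 0.05; fold changes are on that scale, which understates low genes. A prior of 25.8 degrees of freedom joined 2 residual ones. edgeR 4.0.16 and DESeq2 1.42.0 ran on recovered reads as alternatives. Lengths are merged exons of GENCODE 29; promoters are RefSeq's. Members and lists were chosen with earlier results of these data known. Named were all members, the 4 smallest p of each list, overlapping genes and, for the members with the highest and lowest fold change, the 3 genes of nearest pattern. One gene that this rule names is not reported here.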

Additional observations from a re-analysis of the deposited data

How the results depend on the processing

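Members kept direction and side of the threshold under 16 alternatives, except as follows. With a constant prior in place of a trended one, genes higher numbered 1598 and genes lower 1246, members higher 4, and ITGAV (0.54, adjusted p = 0.057), ITGB1 (0.36, 0.069), ITGB2 (0.44, 0.054) and ITGB7 (1.09, 0.057) missed the threshold; the cause was not tested. ITGAE changed sign, to 0.01, with edgeR upper-quartile factors and without shcontrol replicate 2, never past the threshold (adjusted p from 0.56 to 0.96). Leaving out each library gave 3011 to 3437 genes higher and 3201 to 3504 lower, with 8 members higher each time; log2 fold changes ran from 0.84 to 0.88 for ITGA4, 0.85 to 0.89 for ITGA5, 0.73 to 0.80 for ITGA6, 0.44 to 0.65 for ITGAV, 0.79 to 0.83 for ITGAL, -0.07 to 0.01 for ITGAE, 0.29 to 0.42 for ITGB1, 0.37 to 0.51 for ITGB2 and 0.87 to 1.32 for ITGB7. With the replicate number as a block, 4108 genes were higher and 4217 lower and 8 members higher. The lists then gained calls lower for SHARPIN (adjusted p = 0.049, 1 inhibitor lower in place of 0) and for CD9 and BSG (0.039 and 0.046, 5 membrane partners lower in place of 3). Deviations of same-numbered libraries correlated at 0.04 over 13922 genes, and whether the numbers pair the libraries is not stated in the labels. The split of calls moved with scaling: edgeR with upper-quartile factors gave 4422 higher and 3331 lower. Of 256 list counts, 238 stayed within 1.5 times the main count; 11 of the 18 others moved under the constant prior. Exon lengths from the basic transcript set, an alternative chosen after seeing the data, gave 15478 normalized counts per kilobase for ITGA4 in shBDH1 in place of 9023. With 2 libraries a group, genes of low count such as ITGB7 (SE 0.168) are measured least well.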

Other observations

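Noncoding genes beside the integrins were also measured, and are given as values. ITGB1-DT, a noncoding gene that starts on the strand opposite ITGB1 and shares 42 exon bases with it, rose to 217.2 and 215.2 normalized counts in shBDH1, against 103.7 and 125.7 in shcontrol (log2 fold change 0.92, SE 0.208, limma adjusted p = 0.00071). ITGB2-AS1, antisense to ITGB2 with 303 shared exon bases, had 49.1 and 63.4 in shBDH1, against 24.6 and 18.4 in shcontrol (log2 fold change 1.35, limma adjusted p = 0.015), a call lost without shBDH1 replicate 2 (adjusted p = 0.14) or shcontrol replicate 2 (0.061). Antisense to ITGAL, AC116348.3 rose by 0.69 (limma adjusted p = 0.011) and AC116348.2 by 0.58 (adjusted p = 0.047) on the log2 scale; AC116348.3 lost its call without shBDH1 replicate 2 (0.13) and with a constant prior (0.051), and AC116348.2 lost it without either shBDH1 library (0.16 each), without shcontrol replicate 2 (0.42), with no filter (0.11), with a constant prior (0.17) and by DESeq2 (0.13). In the main test the other antisense genes missed the threshold: AC078883.2 (limma adjusted p = 0.056) and ITGA6-AS1 (0.17) at ITGA6, AC116914.1 (0.57) and AC116914.2 (0.15) at ITGAE, and AC079313.2 (0.76) at ITGA5. AC078883.2 passed it among genes averaging at least 50 (0.048), at equal library totals (0.049) and with a constant prior (0.037), as did ITGA6-AS1 without shcontrol replicate 1 (0.036) and AC116914.2 with a constant prior (0.03). Without strand, reads of these genes and of their partners cannot be told apart where exons overlap.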
